A study of Mus musculus with 4 samples.

Results

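The cells described here were the prostatic epithelial cells of mouse urogenital sinus explants after 1 day and after 3 days of culture with androgen, the interval in which prostatic buds begin to grow out. They numbered 1719, 771 from day 1 and 948 from day 3, of 7474 cells in the explant library and of 19148 cells in the series, whose other 11674 cells came from 3 libraries of adult prostate. Cells were kept when they had more than 1000 genes detected and under 7.5% of unique molecular identifiers (UMIs, each standing for 1 captured RNA molecule) from mitochondrial genes, which left 6614. A day was given to 5541 of these by a MULTI-seq sample barcode at least 3 times its median over the library and at least 2 times the next barcode. Another 880 cells had no barcode that reached the ratio of 3, and in 193 the second barcode was too close. Prostatic cells were then those with at least 1 *Epcam* UMI, under 2 *Pax2* UMIs, under 5 UMIs of *Upk1a*, *Upk2* and *Upk3a* together, and under 20 UMIs of *Col1a1* and *Col3a1* per 10000.

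All pools came from ICR (CD-1) embryos. The urogenital sinus was taken at stage E15.5, placed on a filter and cultured in serum-free medium (Ham's F-12/DMEM with insulin, transferrin and selenite) that held 10 µM dihydrotestosterone, and pools were collected at day 0, 1, 3 and 6. Middle regions were dissected out before the tissue was dissociated, and live EPCAM-positive cells were sorted. Each day was 1 pool of several explants of both sexes, labelled with its own barcode, and all 4 pools shared 1 microfluidic channel, so that free RNA of any day could enter droplets of any other. The day 3 pool came from a single litter and the day 1 pool from more than 1. With 1 pool per day no difference between days could be tested. Litter, handling and day cannot be told apart, and every interval given covers counting error only.

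The mouse prostate arises from the urogenital sinus, an endodermal tube whose epithelium answers androgen signals that are read largely by the surrounding mesenchyme. Solid epithelial buds grow into that mesenchyme, then lengthen, branch and hollow out into ducts with basal and luminal layers. Hedgehog, WNT, FGF and BMP signals are known to take part in bud outgrowth.

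The day of a cell rested on 8 bases of a MULTI-seq oligonucleotide, which is why these oligonucleotides are shown, with the barcode (bases 22 to 29 of 59) in capitals.
day 1: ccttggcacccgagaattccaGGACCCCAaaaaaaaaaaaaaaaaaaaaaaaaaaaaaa
day 3: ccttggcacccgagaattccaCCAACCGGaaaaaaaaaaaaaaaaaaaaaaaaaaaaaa
The day 1 and day 3 barcodes differed at 5 of 8 positions, and any pair of the 4 barcodes differed at 4 to 6.

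Because promoter sequence is set beside expression below, 7 promoter windows are given here (250 bases before to 50 after the start, RefSeq, build GRCm38.p6, each written 5′ to 3′ on the gene's own strand). *Col4a1* at chr8:11312777-11313076 (minus strand) and *Col4a2* at chr8:11312555-11312854 (plus strand) are shown because their windows overlapped by 78 bases, in capitals.
Col4a1: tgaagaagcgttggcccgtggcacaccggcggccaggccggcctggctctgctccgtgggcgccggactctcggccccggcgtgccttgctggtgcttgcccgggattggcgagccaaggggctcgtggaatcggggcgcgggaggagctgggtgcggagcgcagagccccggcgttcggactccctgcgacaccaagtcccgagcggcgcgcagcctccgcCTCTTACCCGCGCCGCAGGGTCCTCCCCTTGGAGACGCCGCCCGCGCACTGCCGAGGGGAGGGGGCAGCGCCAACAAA
Col4a2: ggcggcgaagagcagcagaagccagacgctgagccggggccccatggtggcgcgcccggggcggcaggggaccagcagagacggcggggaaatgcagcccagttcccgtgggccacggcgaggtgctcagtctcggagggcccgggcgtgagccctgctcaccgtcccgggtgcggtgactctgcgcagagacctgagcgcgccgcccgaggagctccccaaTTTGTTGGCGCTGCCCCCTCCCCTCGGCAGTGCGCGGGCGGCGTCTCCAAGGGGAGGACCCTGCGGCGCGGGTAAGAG
*Mt2* at chr8:94172368-94172667 and *Mt1* at chr8:94178839-94179138 (both plus strand) are shown with the metal response element core, TGCACNC or TGCGCNC on either strand, in capitals.
Mt2: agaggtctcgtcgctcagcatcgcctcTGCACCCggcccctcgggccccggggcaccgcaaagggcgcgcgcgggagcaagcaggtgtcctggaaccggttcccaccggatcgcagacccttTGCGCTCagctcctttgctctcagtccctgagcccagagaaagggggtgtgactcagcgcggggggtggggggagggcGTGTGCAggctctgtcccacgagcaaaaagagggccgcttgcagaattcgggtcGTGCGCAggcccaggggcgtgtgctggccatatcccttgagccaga
Mt1: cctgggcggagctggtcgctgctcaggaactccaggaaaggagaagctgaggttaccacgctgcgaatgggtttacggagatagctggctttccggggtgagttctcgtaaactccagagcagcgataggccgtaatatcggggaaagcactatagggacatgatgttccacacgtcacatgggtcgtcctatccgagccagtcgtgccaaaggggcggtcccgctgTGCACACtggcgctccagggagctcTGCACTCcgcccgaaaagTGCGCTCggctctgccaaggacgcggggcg
The mitotic genes *Ube2c* at chr2:164769679-164769978, *Plk1* at chr7:122159185-122159484 and *Kif11* at chr19:37376132-37376431 (all plus strand) are shown as the members of the G2/M list with the largest ratios that held the cell cycle homology region (CHR) element, TTTGAA or TTCGAA on either strand, in capitals.
Ube2c: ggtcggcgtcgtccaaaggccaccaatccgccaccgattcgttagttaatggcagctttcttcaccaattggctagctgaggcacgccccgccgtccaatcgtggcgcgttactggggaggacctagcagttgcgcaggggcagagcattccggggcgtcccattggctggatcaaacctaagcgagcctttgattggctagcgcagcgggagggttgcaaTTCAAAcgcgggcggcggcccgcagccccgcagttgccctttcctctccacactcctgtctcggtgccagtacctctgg
Plk1: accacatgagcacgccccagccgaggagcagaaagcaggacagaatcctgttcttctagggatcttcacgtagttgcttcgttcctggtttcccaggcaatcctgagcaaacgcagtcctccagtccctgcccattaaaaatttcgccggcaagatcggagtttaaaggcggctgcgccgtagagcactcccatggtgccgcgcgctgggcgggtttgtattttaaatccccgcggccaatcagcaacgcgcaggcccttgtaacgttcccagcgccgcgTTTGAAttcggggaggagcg
Kif11: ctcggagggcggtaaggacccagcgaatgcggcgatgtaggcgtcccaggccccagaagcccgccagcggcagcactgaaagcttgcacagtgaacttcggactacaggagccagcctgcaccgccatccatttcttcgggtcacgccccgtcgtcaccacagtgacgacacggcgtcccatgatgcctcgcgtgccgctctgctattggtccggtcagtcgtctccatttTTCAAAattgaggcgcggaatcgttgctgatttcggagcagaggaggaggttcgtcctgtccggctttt

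Depth was close between the days. The day 1 cells held 15531067 UMIs in all, with a median of 16600 UMIs and 3921 genes per cell, and the day 3 cells held 17916649, with a median of 16960 UMIs and 3887.5 genes. Prostatic cells made up 78.3% of the 985 cells assigned to day 1 and 87.3% of the 1086 assigned to day 3, against 74.3% at day 0 and 92.4% at day 6. The cells were chosen by their measured UMIs of the gate genes and by their barcode counts, so these values are given as a description only. *Epcam* stood at 987 UMIs per 1000000 UMIs of the pool (CPM) on day 1 and 1038 CPM on day 3. At the edges of the gate, 29 cells held a single *Epcam* UMI and 95 held none, 83 cells held 1 *Pax2* UMI and 24 held 2, 27 cells held 4 uroplakin UMIs and 26 held 5, and 39 cells lay between 10 and 20 collagen UMIs per 10000 while 21 lay between 20 and 30.

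The label of the cells was checked against marker genes the gate had not used, in cells that the gate had picked by other markers of the same cell types. *Krt15*, a basal keratin, was the most abundant of them at 4248 CPM on day 1 and 4345 CPM on day 3. *Krt5* stood at 798 and 823 CPM and *Krt8*, a keratin of simple epithelia, at 801 and 650 CPM. Without *Epcam*, the other 8 prostatic epithelial markers summed to 6789 CPM on day 1 and 7235 CPM on day 3. Leaving out the gate genes likewise, the sums were 718 and 540 CPM for 6 markers of mesonephric derivatives, 407 and 340 CPM for 5 of bladder urothelium, 57.9 and 36.2 CPM for 7 of mesenchyme and 45.4 and 14.5 CPM for 5 of smooth muscle, with no gene of these lists at 0 on either day. Of the mesonephric sums, *Wfdc2*, which is also in the proximal luminal list, made up 544 and 403 CPM. *Gata3*, also among the prostate identity genes, made up 122 and 109 CPM. *Sox17*, *Pax8* and *Lhx1* each stood at no more than 15.8 CPM on day 1 and 3.57 CPM on day 3. Of the urothelial sums, *Krt7*, which is also in the simple epithelial list, made up 252 and 226 CPM. The 5 Schwann and neural genes summed to 12 and 1.73 CPM and the 5 neuroendocrine genes to 11 and 5.47 CPM. Hematopoietic, erythroid and endothelial lists summed to at most 2.62 CPM on either day, and *Tyrobp*, *Cd3d*, *Hba-a2*, *Cdh5*, *Tek* and *Emcn* were at 0 on both days.

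Gene by gene, the prostatic cells of the 2 days were alike in most of what they expressed. Of 7630 genes with a mean of both days of at least 10 CPM, 55 (0.721%) were at least 2-fold higher on day 3 and 71 (0.931%) at least 2-fold lower. With TMM scaling in place of total UMIs the split turned to 73 higher and 53 lower. The median log2 ratio over all genes was -0.06 (0.04 with TMM), and the central 95% of genes lay between -0.70 and 0.54. Among the genes of at least 50 CPM, the highest ratios belonged to *Dlk1*, *Wif1*, *Psca*, *Col9a3*, *Gpx2*, *Col4a1*, *Mest*, *Col4a2*, *Meg3*, *Mt2*, *Ly6a*, *Dcn*, *Aldh2*, *Kitl* and *Ccnd1*. The lowest belonged to *Ftl1-ps1*, *Cdc42ep3*, *Pmepa1*, *H19*, *Nnat*, *Elf3*, *Slc2a1*, *Errfi1*, *Cystm1*, *Lypd2*, *Gm26917*, *Rnd3*, *Meis2*, *Cyr61* and *Snhg12*. *Ftl1-ps1* is a near copy of the ferritin light chain gene *Ftl1*, and its ratio of -5.91 is uncertain. On day 1 it was found in 69.3% of cells with an *Xist* and no Y-linked UMI and 41.7% of those with the reverse, and exchange of reads, embryo and day cannot be told apart for it. Calls close to 2-fold were lost with TMM scaling for *Slc2a1* (-0.95), *Elf3* (-0.98), *Errfi1* (-0.94), *Cystm1* (-0.91) and *Lypd2* (-0.90). In cells with no UMI of 5 cell cycle genes (*Mki67*, *Top2a*, *Cdk1*, *Ccnb1* and *Pcna*), *Errfi1* had -0.28 and *Lypd2* -0.20.

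**Figure D1:**
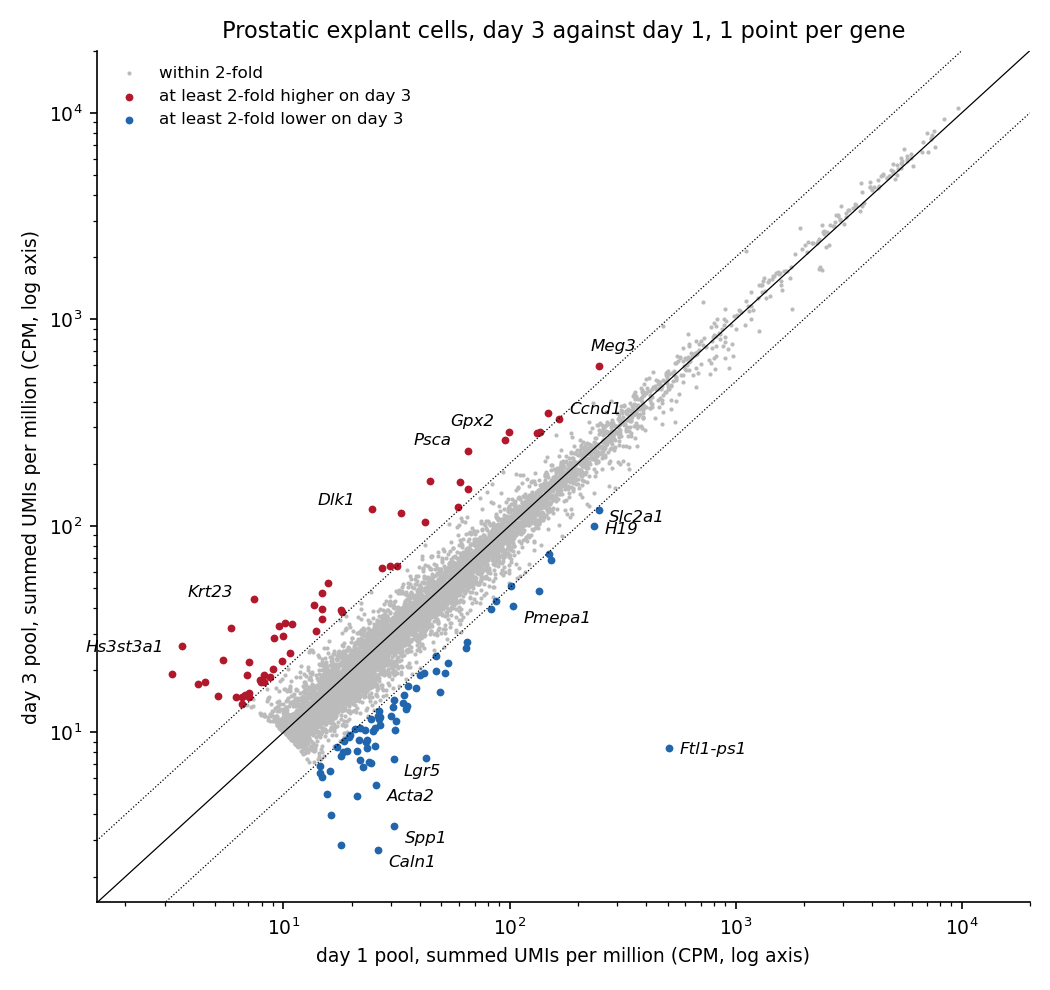
Summed level (CPM) of each of the 7630 genes compared in day 1 (x axis) and day 3 (y axis) prostatic cells, both axes logarithmic, with 1 pool per day, the diagonal of equal level solid and the 2-fold lines dotted. The 55 genes at least 2-fold higher on day 3 are red and the 71 at least 2-fold lower are blue, and most of the other genes lie close to the diagonal.

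Among genes of low level, *Krt23* and a pair of heparan sulfate genes had some of the largest ratios. *Krt23*, a type I keratin (chr11:99477974-99493137, minus strand, GRCm38), stood at 3.33 CPM at day 0, 7.40 CPM (95% Poisson interval 6.11 to 8.89) at day 1, 44.3 CPM (41.2 to 47.5) at day 3 and 9.66 CPM at day 6. Day 3 was thus above all other pools, and the log2 ratio of day 3 over day 1 was 2.58 (95% counting interval 2.30 to 2.87). In cells with no UMI of 5 cell cycle genes that ratio was 1.36. *Hs3st3a1*, which encodes a sulfotransferase that modifies heparan sulfate chains, stood at 2.84, 3.54, 26.1 and 21.3 CPM, with a ratio of 2.88 (2.48 to 3.31). Its paralog *Hs3st3b1*, on the same chromosome 11, stood at 2.91, 3.22, 19.1 and 15.6 CPM, with a ratio of 2.57 (2.14 to 3.03). For both sulfotransferase genes days 3 and 6 were high and days 0 and 1 low.

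The shares of cells with a UMI of these genes were higher on day 3 too. At such low levels that share largely follows the summed level. It therefore cannot separate more expressing cells from more RNA per cell. Each cell was thinned to 5000 UMIs, leaving out 15 shallower cells of day 1 and 9 of day 3. Of the 756 day 1 and 939 day 3 cells kept, 2.25% (exact binomial interval 1.32 to 3.58) and 11.5% (9.53 to 13.7) held *Krt23*, and without thinning the shares were 4.93% and 20.9%. After thinning, the shares were 1.06% and 10.4% for *Hs3st3a1* and 1.19% and 8.73% for *Hs3st3b1*. Outside the gate, *Hs3st3a1* was found in 1.33% (0.276 to 3.85) of the 225 cells of days 1 and 3 that the gate removed for uroplakin UMIs, at a median depth of 22434 UMIs. *Krt23* was found in 6.67% of those uroplakin cells (3.78 to 10.8) and in 0 of 39 cells removed for collagen UMIs, which allows up to 9.03%. These cells were sorted as EPCAM-positive too, and both days were joined. Their shares are thus no background level for either day.

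More abundant genes that were higher on day 3 were of several functional kinds. *Wif1*, a secreted inhibitor that binds WNT ligands, stood at 25.3, 44.5, 166 and 80.5 CPM over the 4 days. The glutathione peroxidase gene *Gpx2* stood at 30.7, 99.4, 285 and 65.2 CPM. *Col9a3*, a chain of collagen IX, stood at 22.1, 33.1, 116 and 124 CPM. Day 3 was the highest pool for *Wif1* and *Gpx2*, whereas *Col9a3* was as high on day 6. Their log2 ratios were 1.90 (1.78 to 2.02) for *Wif1*, 1.52 (1.44 to 1.6) for *Gpx2* and 1.80 (1.66 to 1.95) for *Col9a3*. *Wif1* UMIs were found in 12.7% of thinned cells on day 1 and 34.1% on day 3, *Gpx2* UMIs in 25.5% and 45.6%. *Kitl*, the ligand of the KIT receptor, stood at 61.2, 59.0, 123 and 173 CPM, and *Aldh2*, a mitochondrial aldehyde dehydrogenase, at 132, 136, 285 and 309 CPM, both highest on day 6. *Ccnd1*, which encodes cyclin D1, was at the edge of the 2-fold limit with 165 CPM on day 1 and 331 CPM on day 3.

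**Figure D2:**
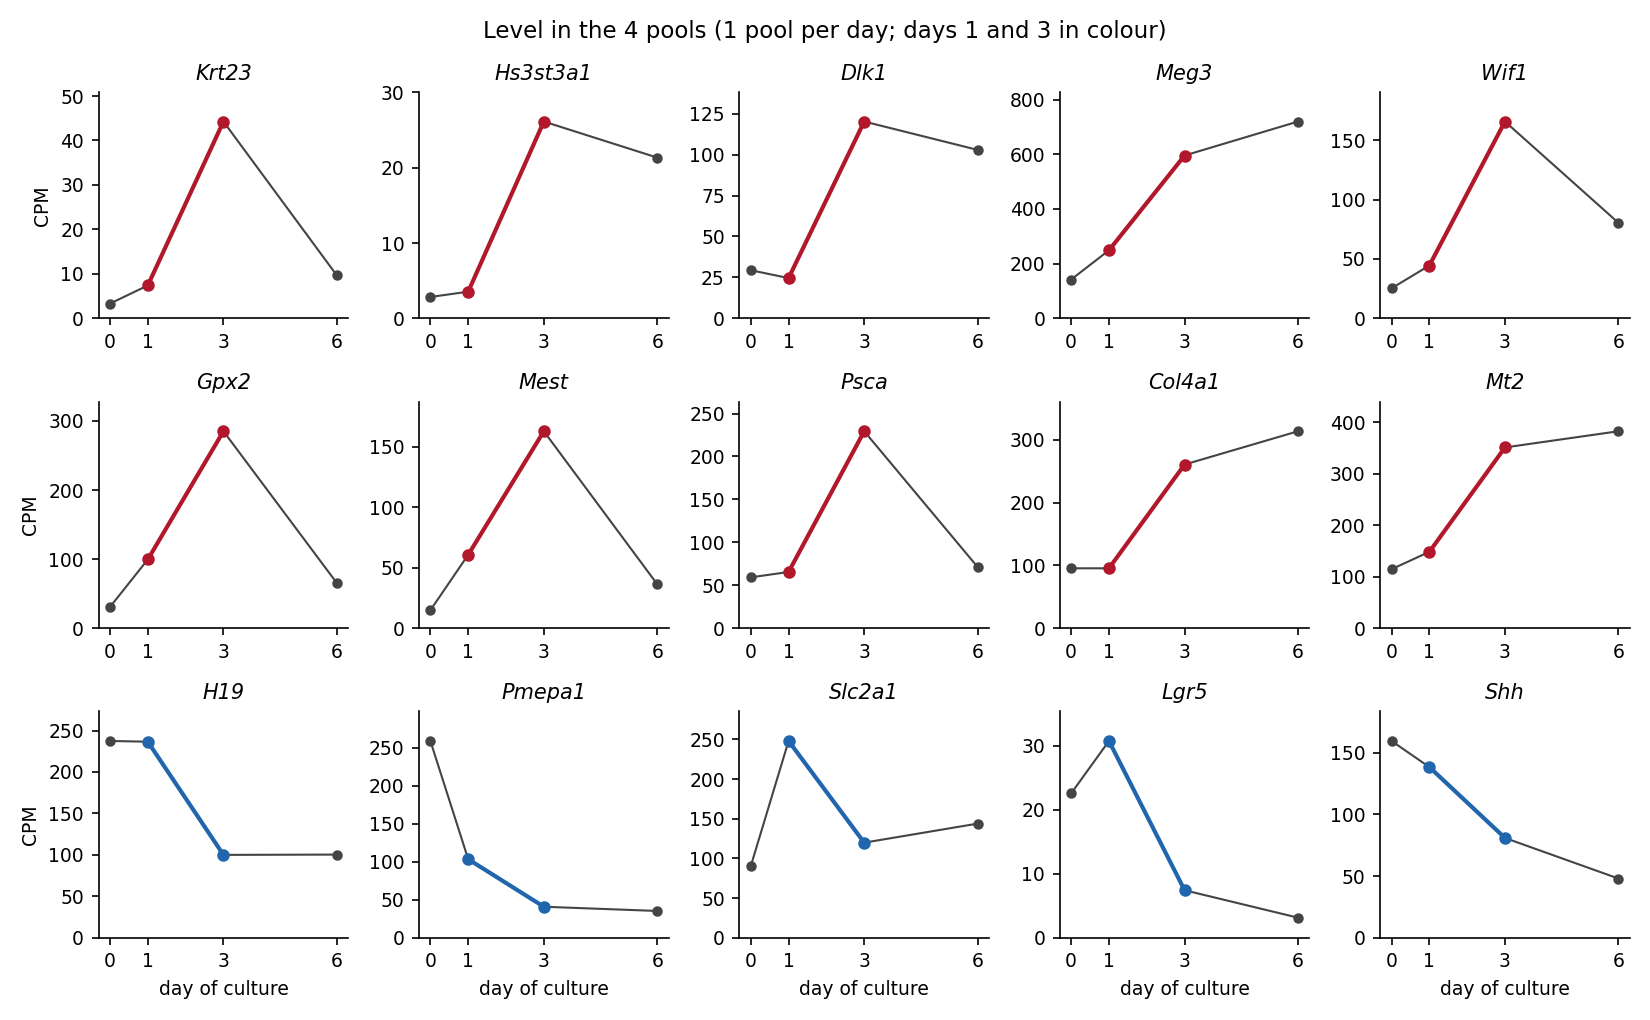
Level of 15 genes (CPM, each panel with its own y axis from 0) in the prostatic cells against the day of culture (x axis: 0, 1, 3 and 6), with 1 point per pool, no error bars, and days 1 and 3 joined in red where day 3 is higher and in blue where it is lower. *Krt23*, *Wif1*, *Gpx2*, *Mest* and *Psca* are highest on day 3, *Col4a1* and *Mt2* are higher still on day 6, and *Shh* and *Pmepa1* are lower at each later day.

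Within the day 3 pool, the cells with a *Dlk1* UMI differed in other genes from the cells without one. *Dlk1* encodes a membrane protein of the Notch ligand kind known to hold cells undifferentiated. The split was chosen after the values were seen, and the shares are descriptions within a single pool. Of 283 thinned cells with a *Dlk1* UMI, 90.8% also held *Meg3*, 76.3% *Col4a1*, 68.6% *Gpx2*, 60.1% *Etv4*, a transcription factor downstream of FGF signals, and 59.4% *Wif1*. Of the 656 cells without one, the shares were 58.8%, 47.0%, 35.7%, 23.9% and 23.2% in the same order. *Col9a3* (48.4% against 25.6%), *Mest* (39.2% against 15.1%), *Krt23* (19.8% against 7.93%), *Hs3st3a1* (17.7% against 7.32%) and *Top2a*, a marker of cycling cells (38.5% against 23.3%), were also seen more often in cells with *Dlk1*. None of the binomial intervals of these pairs overlapped.

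Several genes showed the opposite relation. *Krt5* was found in 57.2% of *Dlk1* cells (51.3 to 63.1) and 70.9% of the others (67.2 to 74.3), while its partner keratin *Krt14* was found in 82.7% and 77.0%, with intervals that overlapped. *Ly6a* was found in 12% against 34.6%, *Runx1* in 17.0% against 27.0%, *Krt4* in 3.53% against 17.1%, *Psca* in 2.47% against 12.3%, *Lypd2* in 2.83% against 17.8% and the glucose transporter gene *Slc2a1* in 25.4% against 41.0%. For *Shh* (36.0% against 29.6%), *H19* (32.5% against 32.0%) and *Lgr5* (2.47% against 4.42%) the intervals overlapped. On day 1, 54 thinned cells held *Dlk1*, and *Meg3* (70.4% against 32.8%), *Wif1* (29.6% against 11.4%) and *Krt5* (59.3% against 81.1%) had intervals that did not overlap, whereas those of *Ly6a* and *Gpx2* did.

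**Figure D3:**
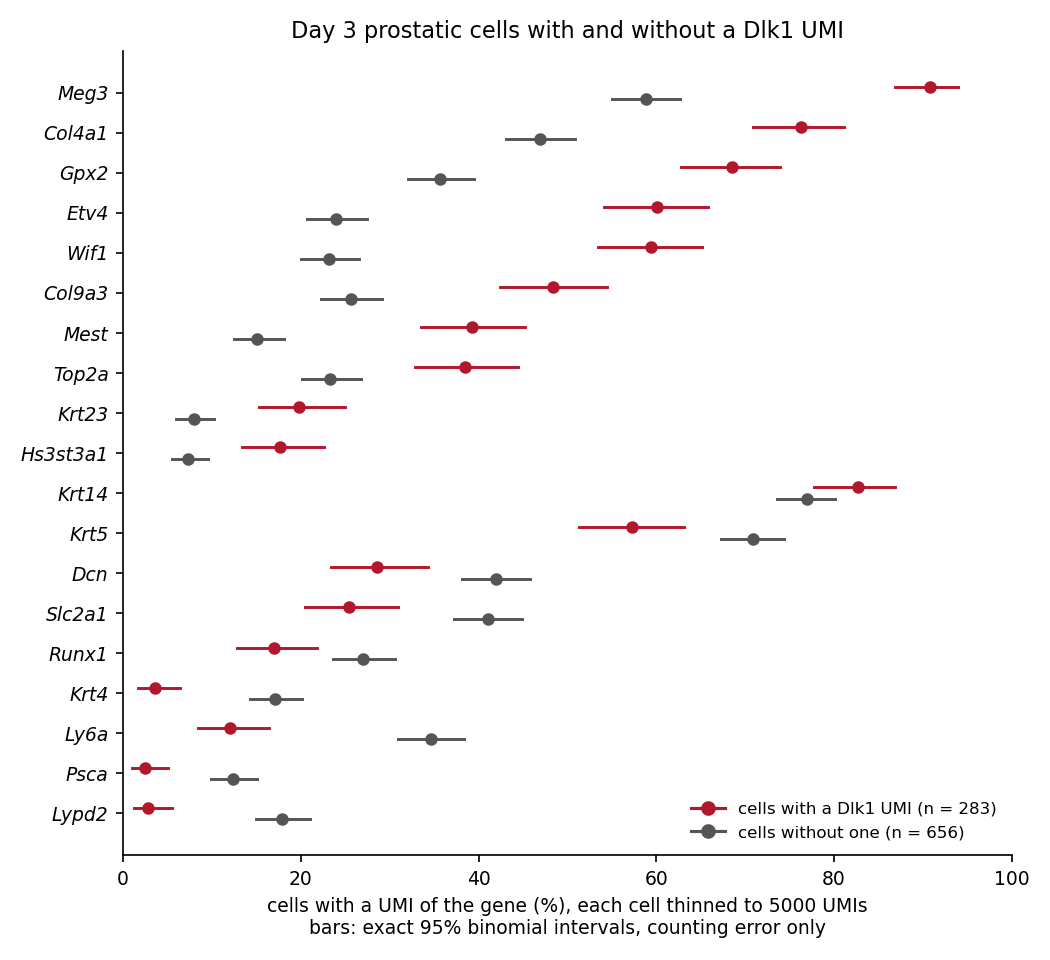
Share of day 3 prostatic cells (thinned to 5000 UMIs, percent, x axis) with a UMI of each of 19 genes (y axis), for the 283 cells with a *Dlk1* UMI and the 656 without, with exact binomial intervals. *Meg3*, *Col4a1*, *Gpx2*, *Etv4* and *Wif1* are more frequent in cells with *Dlk1*, and *Krt5*, *Ly6a*, *Runx1*, *Psca* and *Lypd2* in cells without.

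*Runx1* encodes a transcription factor of the RUNX family, and *Krt4* a keratin found in the luminal layer near the urethra. *Runx1* stood at 96.9, 86.6, 55.6 and 63.3 CPM over the 4 days, with a log2 ratio of -0.64 (-0.76 to -0.52), short of 2-fold. Its ratio was -0.12 in cells with no UMI of 5 cell cycle genes and -0.93 in cells with an *Xist* and no Y-linked UMI. The share of thinned cells with *Runx1* was 36.2% on day 1 and 24% on day 3. The level of *Krt4* was 51.6, 61.7, 62.6 and 22.7 CPM, with a ratio of 0.02 (-0.11 to 0.15). The *Krt4* ratio was -0.59 without any gate beyond *Epcam* and 1.39 in cells with an *Xist* and no Y-linked UMI. The share of thinned cells with *Krt4* was 13.5% on day 1 and 13.0% on day 3. On day 3, *Krt4* cells held *Krt5* more often (87.7%, 80.5 to 93.0) than cells without *Krt4* (63.6%, 60.2 to 67.0). *Runx1* was found in 32.0% of the *Krt4* cells (23.8 to 41.0) and 22.8% of the others (19.9 to 25.8), and these intervals overlapped. *Krt4* was also frequent in the uroplakin cells outside the gate (47.6%).

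Of the 17 proximal luminal genes compared (20 in the list), 3 were at least 2-fold higher, none was 2-fold lower, and the median ratio was 0.02, beside 0.721% higher and 0.931% lower over all genes. Those 3 belong to the Ly6 family of small membrane-anchored proteins and lie together on chromosome 15. *Psca* (prostate stem cell antigen, chr15:74714839-74717069) stood at 59.2, 65.4, 229 and 71.2 CPM, *Ly6d* (chr15:74762056-74763620) at 24, 27.4, 62.7 and 68.3 CPM, and *Ly6a* (chr15:74994877-74998031), which encodes SCA-1, at 36.7, 65.7, 151 and 188 CPM. *Lypd2* (chr15:74732247-74734329), which lies between *Psca* and *Ly6d*, 15.178 kb from the former and 27.727 kb from the latter, was lower on day 3, with 105, 102, 50.8 and 23.9 CPM. The log2 ratios were 1.81 (1.71 to 1.91) for *Psca*, 1.20 (1.03 to 1.36) for *Ly6d*, 1.20 (1.10 to 1.30) for *Ly6a* and -1.0 (-1.12 to -0.88) for *Lypd2*. *Ly6a* was short of 2-fold under a stricter gate (0.97), and *Ly6d* without any gate beyond *Epcam* (0.78).

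The 3 genes differed in how cells carried the difference. *Ly6a* was found in 17.2% of thinned cells on day 1 and 27.8% on day 3. *Psca* was found in 4.63% (3.25 to 6.38) and 9.37% (7.58 to 11.4), while *Ly6d* was found in 4.63% and 4.90%, with intervals that overlapped. UMIs per thinned cell that held *Ly6d* were 2.4 on day 1 and 5.9 on day 3, and those per cell that held *Psca* were 5.5 and 9.8. *Psca* also marks cells of the urothelium, and 48.4% of the uroplakin cells of day 1 and 45.4% of those of day 3 held it, at a median depth of 26307 and 19167 UMIs. *Ly6d* was held by 21.1% and 39.2% of the same cells, and *Ly6a* by 22.7% and 43.3%. Among prostatic cells the 5 urothelial markers that the gate had not used summed to 407 CPM on day 1 and 340 CPM on day 3. Of these sums *Krt7*, which is also in the simple epithelial list, made up 252 and 226 CPM. They are thus no close measure of urothelial cells. With a stricter gate the ratio of *Psca* was 1.98. Without any gate beyond *Epcam* it was 0.74. The part that urothelial cells just inside the gate have in the levels of these 3 genes was not tested further.

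The imprinted genes held some of the largest differences in both directions. Of 10 imprinted growth regulators compared, 3 were at least 2-fold higher and 1 at least 2-fold lower, with a median ratio of 0.18, beside 0.721%, 0.931% and -0.06 over all genes. *Dlk1* (chr12:109452823-109463336) stood at 29.4, 24.6, 120 and 103 CPM. *Meg3* (chr12:109541001-109571726), a long noncoding RNA 77.665 kb downstream in the same imprinted cluster and expressed from the other parental allele, stood at 142, 249, 596 and 720 CPM. *Mest* stood at 14.8, 60.6, 163 and 36.2 CPM, and *H19*, a maternally expressed noncoding RNA, at 237, 236, 100 and 100 CPM. Days 3 and 6 were thus both high for *Dlk1* and *Meg3* and both low for *H19*, while *Mest* stood highest on day 3 alone.

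The ratios of these genes were 2.29 (2.13 to 2.45) for *Dlk1*, 1.26 (1.20 to 1.31) for *Meg3*, 1.42 (1.32 to 1.53) for *Mest* and -1.24 (-1.32 to -1.16) for *H19*. *Dlk1* was found in 7.14% of thinned cells on day 1 and 30.1% on day 3, *Meg3* in 35.4% and 68.5%, *Mest* in 15.3% and 22.4%, and *H19* in 62.0% and 32.2%. *Nnat*, which encodes neuronatin and is imprinted too although it was not in the list, stood at 211, 152, 68.1 and 64.2 CPM. The other members lay between -0.53 for *Ndn* and 0.35 for *Igf2r*, with *Cdkn1c* at -0.36 and *Peg3* at 0.04. Mesenchyme carries *Dlk1*, *Meg3* and *Mest* too, and the 28 thinned collagen cells of day 1 held them in 71.4%, 96.4% and 60.7%. Of the 11 thinned collagen cells of day 3, 9.09% (1 cell), 90.9% and 54.5% did. *H19* was held by 75% of these cells on day 1 and 36.4% on day 3, and the part of mesenchyme in its ratio was not tested. In the prostatic cells the 7 mesenchymal markers that the gate had not used summed to 57.9 CPM on day 1 and 36.2 CPM on day 3. Under the stricter gate, which allows fewer collagen UMIs, the ratios were 2.32, 1.17 and 1.42 for *Dlk1*, *Meg3* and *Mest*, and the part of mesenchyme in them was not tested further.

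Among basement membrane, matrix and adhesion genes the 2 chains of one collagen stood apart from the rest. Of 18 genes compared (28 in the list), 2 were at least 2-fold higher (0.721% of all genes), none was 2-fold lower, and the median ratio was 0.00. *Col4a1* and *Col4a2* encode the chains that make up the common form of collagen IV, the network-forming collagen of basement membranes. *Col4a1* stood at 95.3, 95.3, 261 and 314 CPM, and *Col4a2* at 36.4, 42.3, 105 and 143 CPM, with both later pools above both earlier ones. The log2 ratios were 1.45 (1.37 to 1.54) and 1.31 (1.18 to 1.44), and *Col4a1* was found in 26.9% of thinned cells on day 1 and 55.8% on day 3.

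The *Col4a1* and *Col4a2* genes are transcribed away from each other, and their RefSeq starts lie 21 bases apart, so the windows printed above share 78 bases (chr8:11312777-11312854) read on opposite strands. The chains of another collagen IV network had ratios near 0, -0.11 for *Col4a5* and -0.08 for *Col4a6*. *Col18a1* (0.92) and the hyaluronan receptor gene *Cd44* (0.90) were higher but short of 2-fold, while the laminin gene *Lamb1* (-0.71) and *Fn1*, which encodes fibronectin (-0.74), lay at the other end. The collagen cells outside the gate held *Col4a1* in 67.9% of day 1 cells.

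Basal genes were mostly somewhat higher on day 3. Of the 18 in the list, all compared, 15 had a ratio above 0, against 39.6% of all genes, with a median of 0.10. *Dcn*, which encodes the matrix proteoglycan decorin, was the one past 2-fold, at 153, 132, 281 and 459 CPM with a ratio of 1.09 (1.02 to 1.16). *Vcan* (0.89) and *Apoe* (0.80) followed, and all 3 were higher again on day 6. The ratio of *Apoe* ran from -0.04 in cells with an *Xist* and no Y-linked UMI to 1.22 with the study's barcode count thresholds. That of *Vcan* stayed between 0.50 and 1.05 across the alternatives. *Krt14* stood at 536, 720, 1212 and 1567 CPM, with a ratio of 0.75 (0.72 to 0.78), while *Krt5*, with which it forms filaments, had 0.05 (0.01 to 0.08) and *Trp63*, the basal transcription factor, -0.07. The share of thinned cells with *Krt5* was 79.5% on day 1 and 66.8% on day 3, although its summed level was nearly equal. Decorin is abundant in mesenchyme, with 82.1% of the day 1 collagen cells holding it, and the ratio of *Dcn* under the stricter gate was 1.17.

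The keratins of simple epithelia were lower on day 3, none by as much as 2-fold. *Krt19* (932 CPM on day 1 and 582 CPM on day 3), *Krt18* (971 and 663 CPM) and *Krt8* (801 and 650 CPM) had ratios of -0.68, -0.55 and -0.30. Of 13 simple epithelial and luminal genes compared, *Krt23* alone was past 2-fold, 10 were below 0 (60.4% of all genes), and the median was -0.15.

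The metallothioneins, small proteins that bind zinc and copper, were higher on day 3. *Mt2* stood at 114, 148, 351 and 383 CPM, and *Mt1* at 338, 475, 930 and 1025 CPM, both in order of day. *Mt2* had a ratio of 1.24 (1.18 to 1.31), and *Mt1* was just short of 2-fold with 0.97 (0.93 to 1.01). *Mt2* was found in 44.2% of thinned cells on day 1 and 71.8% on day 3, *Mt1* in 76.2% and 91.4%. The RefSeq starts of the pair lie 6471 bases apart, and the windows printed above hold 4 metal response cores for *Mt2* and 3 for *Mt1*. That core is common, being found in 25.7% of 32851 promoter windows, and a match is a description of sequence only.

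Cell cycle genes divided by phase. All 22 genes of the S phase list were compared, with a median ratio of -0.02, 10 above 0 and none past 2-fold. All 22 genes of the G2/M list were above 0, from 0.23 for *Ccnb2* to 0.77 for *Ube2c*, with a median of 0.44 and none past 2-fold. *Top2a* stood at 144 CPM on day 1 and 205 CPM on day 3, and *Mki67* at 67.2 and 91.2 CPM. The shares of thinned cells with a UMI did not separate beyond their intervals, with 18.3% (15.6 to 21.2) and 22% (19.4 to 24.8) for *Mki67* and 22.2% (19.3 to 25.4) and 26.9% (24.1 to 29.9) for *Ube2c*. The G2/M median was 0.12 without the 10% of cells with most UMIs and 0.30 after thinning. Among the D cyclins and inhibitors, *Ccnd1* was the one past 2-fold, *Ccnd2* had -0.08 and *Ccnd3* -0.61.

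The CHR element, a sequence known from promoters of genes expressed late in the cell cycle, was found in 15 of the 20 windows of G2/M genes in the table (75%), in 3 of 21 S phase windows (14.3%) and in 19.2% of all windows. Those 15 windows belong to *Ube2c*, *Plk1*, *Kif11*, *Hmmr*, *Aurka*, *Top2a*, *Cdc20*, *Mki67*, *Cdk1*, *Cenpa*, *Cenpf*, *Bub1*, *Hmgb2*, *Kif23* and *Ccnb2*. Counted from the start of transcription, the first base of the element lies at -29 in *Ube2c*, -19 in *Kif11* and 30 in *Plk1*, and 14 of the 15 genes had a match within 50 bases of the start. No match elsewhere says only that these letters are not in the window.

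All 16 cholesterol synthesis and uptake genes were compared and all lay above 0, with a median ratio of 0.47 and none past 2-fold. *Dhcr7*, which encodes the last enzyme of one branch of the pathway, had the highest ratio at 0.77 (15.1 CPM on day 1 and 25.7 CPM on day 3). *Fdps*, an enzyme of the isoprenoid steps, stood at 188 and 281 CPM. *Hmgcs1*, an enzyme of the first steps, stood at 244 and 309 CPM, and *Fdft1*, which commits the pathway to sterols, had the lowest ratio at 0.09. Across the alternatives the median stayed between 0.30 and 0.57. Promoter windows were available for only 10 of the 16 genes. The sterol regulatory element TCACNCCAC was found in 1 of the 12 windows of those 10 genes, that of *Hmgcs1*, and in 1.24% of all windows.

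Genes of hypoxia and glycolysis were mostly lower on day 3, with 17 of 21 below 0 (60.4% of all genes) and a median of -0.39. *Slc2a1*, the one past 2-fold, stood at 90.4, 248, 120 and 144 CPM, with a ratio of -1.05 (-1.13 to -0.97), and was found in 54.4% of thinned cells on day 1 and 36.3% on day 3. *Ero1l* stood at 32.7, 237, 144 and 140 CPM, *Ndrg1* at 21.2, 129, 76.1 and 77.5 CPM, and *Ankrd37* at 12.7, 61.0, 30.8 and 22.2 CPM. Day 1 was the highest of the 4 pools for each of these genes, and day 0 the lowest. Glycolytic enzymes were split, with *Aldoa* at -0.54, *Gapdh* at -0.08 and *Eno1* at 0.31. The study removed a cluster of hypoxic and stressed cells that was kept here, and the part such cells have in these ratios was not tested.

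Immediate early genes, which can respond to dissociation, had 12 of 16 below 0, against 60.4% of all genes, and a median of -0.21, with *Atf3* at -0.48 and *Fos* at -0.17. In the integrated stress response list the median was -0.19 and the lowest ratio belonged to *Ddit3* at -0.98.

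**Figure D4:**
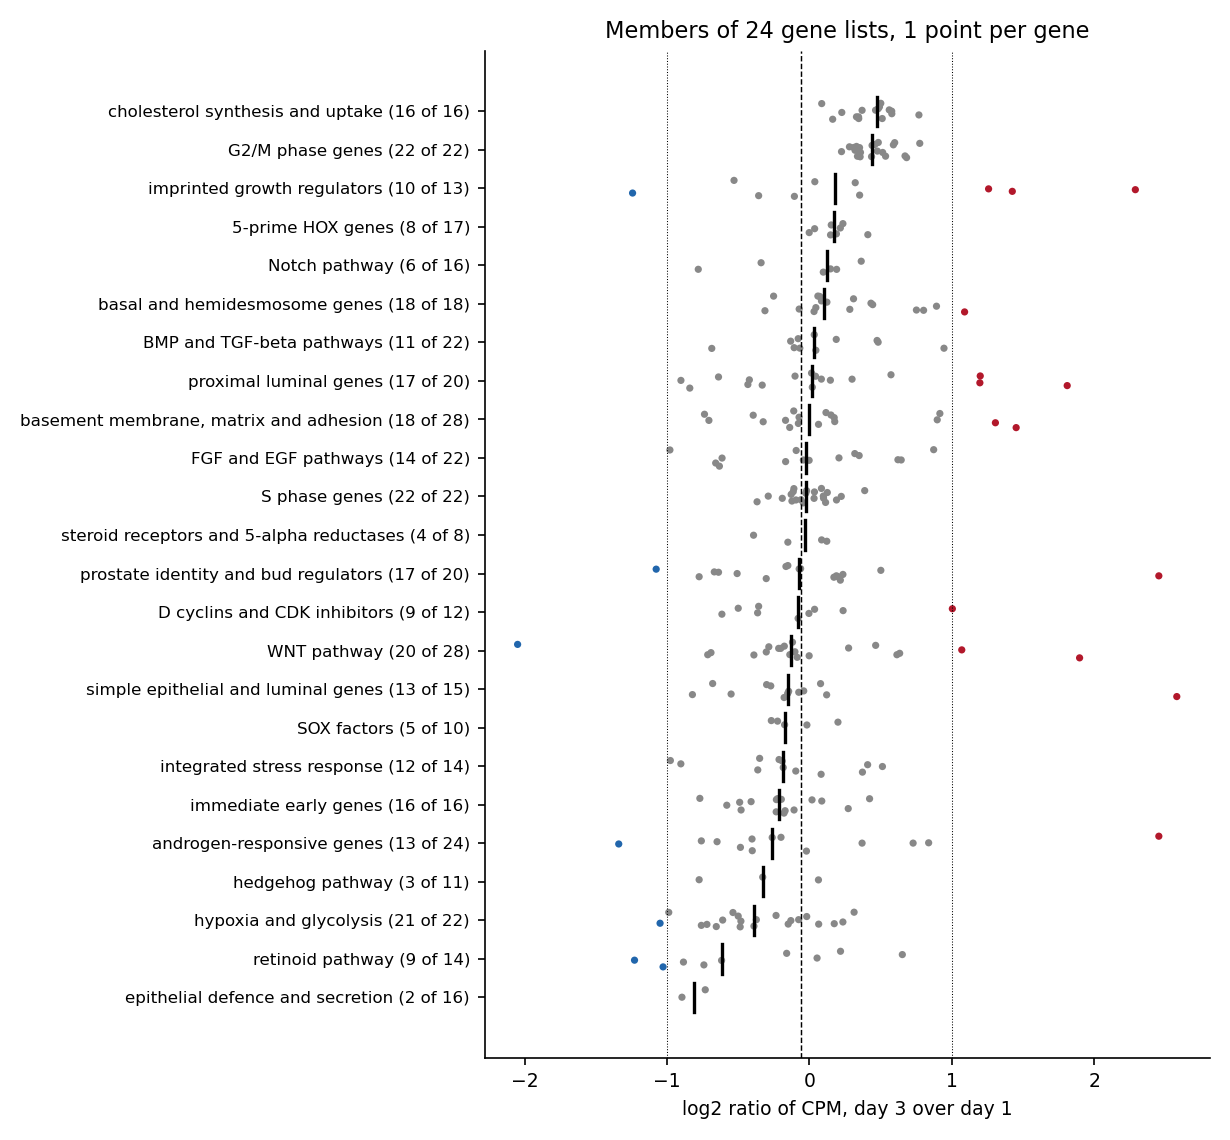
Log2 ratio of day 3 over day 1 (x axis) for each compared gene of the 24 lists (y axis, 1 point per gene), with how many members were compared. Black bars mark list medians, the dashed line the median of all 7630 genes (-0.06), dotted lines the 2-fold limits, and genes past them are red or blue. The G2/M and cholesterol lists lie wholly above 0, and the medians of the retinoid and hypoxia lists are -0.62 and -0.39.

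Signalling genes were mostly within 2-fold. In the WNT list, of 20 compared, *Wif1* and *Sp5*, a WNT target (6.57 CPM on day 1 and 13.8 CPM on day 3, ratio 1.07), were past 2-fold higher (0.721% of all genes) and *Lgr5*, a receptor for R-spondins and also a WNT target, was past 2-fold lower, with a median of -0.13. *Sp5* had 0.02 in cells with no UMI of 5 cell cycle genes. *Lgr5* stood at 22.5, 30.7, 7.42 and 3.14 CPM, with a ratio of -2.05 (-2.34 to -1.77), and was found in 13.1% of thinned cells on day 1 and 3.83% on day 3. *Axin2*, the most widely used readout of the pathway, had -0.20, and the ligands *Wnt4* and *Wnt6* had -0.14 and -0.09. *Lef1* (0.47) and *Tcf7* (0.63), transcription factors of the pathway, were on the higher side.

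*Shh*, the hedgehog ligand made by this epithelium, stood at 159, 138, 80.9 and 48.0 CPM, lower at each later pool, with a ratio of -0.77 (-0.87 to -0.68), and its share of thinned cells was 44.6% on day 1 and 31.5% on day 3. Its receptor gene *Ptch1* had -0.33 and *Smo* 0.06. In the FGF and EGF list none of 14 was past 2-fold, with *Fgfbp1* at 0.87 and *Etv4* at 0.64 highest and the EGF receptor ligand *Areg* lowest at -0.98. *Etv4* had -0.07 in cells with no UMI of 5 cell cycle genes and 1.11 in cells with an *Xist* and no Y-linked UMI. *Fgfbp1* had 1.34 and 0.26 in the same order. Of 6 Notch genes and 11 BMP and TGF-beta genes none was past 2-fold, with medians of 0.12 and 0.03. *Sostdc1*, a secreted BMP and WNT antagonist, stood highest among the latter at 0.94.

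The retinoid list had the lowest median of the lists with more than 2 genes compared, at -0.62 over 9 genes. *Rarb*, a retinoic acid receptor that is itself a target of retinoic acid, stood at 24.5, 21.6, 9.21 and 5.11 CPM, with a ratio of -1.23 (-1.51 to -0.95). *Aldh1a2*, which makes retinoic acid, stood at 18.3, 18.5, 9.10 and 6.54 CPM, with a ratio of -1.03 (-1.31 to -0.75). Both were short of 2-fold in Y-linked cells, with -0.71 and -0.42, and *Aldh1a2* also with TMM scaling (-0.93). *Rara* (-0.88), *Crabp2* (-0.74) and *Dhrs3* (-0.62) lay on the same side, while *Aldh1a3* had 0.65. Restricted to genes of at least 50 CPM, the median of the list was -0.16. Mesenchyme carries *Rarb* too. The thinned collagen cells of day 1 outside the gate held it in 32.1%, at a summed level of 77.3 CPM, and the part of mesenchyme in its ratio was not tested.

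The androgen-responsive genes gave no common direction. *Pmepa1*, which is also a TGF-beta target, was the one past 2-fold lower (259, 103, 40.9 and 35.4 CPM over the 4 days), and 9 of the 13 genes compared were below 0 (60.4% of all genes). The collagen cells of day 1 outside the gate held *Pmepa1* at 291 CPM, and the part of mesenchyme in its ratio was not tested. *Sgk1* (0.84) and *Homer2* (0.73) were higher and *Fkbp5* was level (-0.02). *Srd5a1*, a reductase that makes dihydrotestosterone, stood at 65.7 CPM on day 1 and 69.8 CPM on day 3. Dihydrotestosterone was present at both days, so this comparison holds no sample without androgen.

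Among prostate identity and bud regulators, 17 compared, *Elf3* was the one past 2-fold lower (57.6, 83.1, 39.4 and 23.4 CPM). *Hoxb13* had 0.24, *Sox9* 0.20, *Foxa1* -0.30, *Gata3* -0.16 and *Tbx3* 0.50. Of 8 HOX genes compared, 7 were above 0 and none past 2-fold, the highest being *Hoxa10* at 0.41, and the 5 SOX factors ran from -0.27 to 0.20. The 2 epithelial defence and secretion genes compared, *Agr2* and *Cxcl15*, had -0.89 and -0.73, and 14 others of that list were under the 10 CPM limit. Over all 24 lists, which hold 413 genes, 294 were compared, 14 of them past 2-fold higher and 7 past 2-fold lower (0.721% and 0.931% of all genes).

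Embryos of both sexes went into each pool, and cells could be divided by sex-linked UMIs. On day 1, 367 cells held a Y-linked and no *Xist* UMI and 215 the reverse, and on day 3 these were 582 and 211. Cells with both kinds, which include any doublets of male and female cells, numbered 124 on day 1 and 72 on day 3, and 65 and 83 cells had neither. Of the 55 genes past 2-fold higher, 47 were also past it in the Y-linked class and 48 in the *Xist* class, with 40 in both. Of the 71 lower genes the counts were 59, 53 and 42. The cells of both classes are part of the sums that chose these genes, so the overlap is no separate check. Over all genes compared in Y-linked cells, 0.85% were past 2-fold higher and 1.30% past 2-fold lower. In *Xist* cells these shares were 1.39% and 2.28%.

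*Dlk1* was higher on day 3 in both sex classes, with log2 ratios of 1.97 in Y-linked and 3.06 in *Xist* cells, and *Wif1* 1.80 and 2.65. *Psca* differed between the classes, with 0.53 (0.39 to 0.68) in Y-linked cells, from 84.8 to 123 CPM, and 3.96 (3.58 to 4.37) in *Xist* cells, from 15.7 to 244 CPM. For *Dcn* the order was reversed, with 1.69 and 0.57, and *Lypd2* was lower in Y-linked cells (-1.58) but level in *Xist* cells (-0.08, an interval that spans 0). Each sex class of each pool holds an unknown number of embryos, so sex and embryo cannot be told apart.

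**Figure D5:**
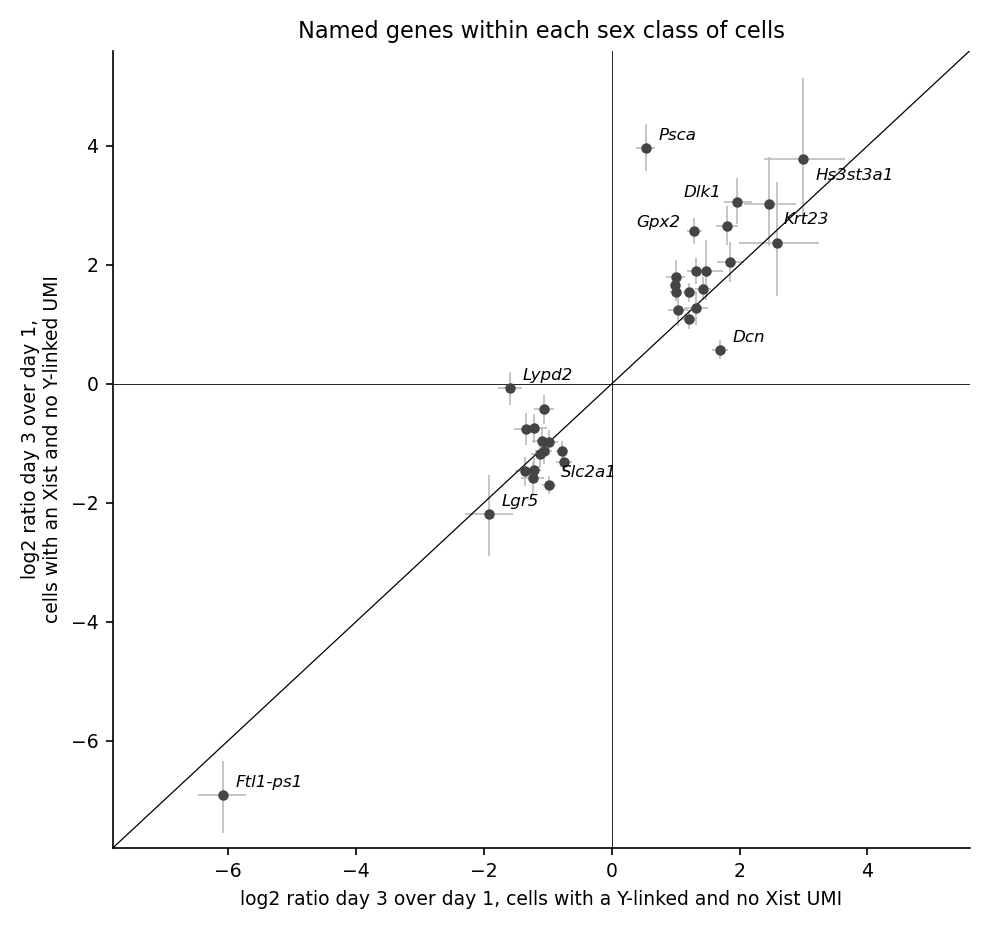
Log2 ratio of day 3 over day 1 in cells with a Y-linked and no *Xist* UMI (x axis) and in cells with an *Xist* and no Y-linked UMI (y axis) for genes named in the text, with 95% counting intervals and the line of equal ratio. *Psca* lies far above the line (0.53 and 3.96), *Dcn* below it, and *Dlk1* and *Wif1* are above 0 in both classes.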

How the data were processed

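Single-cell RNA-seq libraries were aligned to mouse build mm10 (GRCm38) and counted by the authors with Cell Ranger 3.1.0 (Seurat 3.1.5 is also in the submitters' processing notes). The deposited gene matrix of the explant library holds raw counts of UMIs for 31053 genes per cell, and the deposited MULTI-seq table holds barcode counts per cell. The table that pairs barcodes with pools was deposited as text. The adult libraries were used only to count cells, and 16 of their cell barcodes also occur in the explant library.

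Counts were read with Python 3.11.15 (numpy 2.4.6, scipy 1.17.1, pandas 2.3.3, drawn with matplotlib 3.10.9). UMIs were summed over the prostatic cells of a day and divided by their total (CPM). Genes with a mean of both days of at least 10 CPM were compared, and a gene was called at 2-fold. Intervals were exact at 95%: Poisson for a level, conditional binomial for a ratio, Clopper-Pearson for a share. Shares used cells thinned to 5000 UMIs (seed 1). No test was run, since each day was 1 pool. TMM factors came from edgeR 4.0.16 in R 4.3.3. The scripts were tested on simulated data.

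Genes named were the 15 highest and 15 lowest ratios among genes of at least 50 CPM, without gate, mitochondrial, sex-linked and hemoglobin genes, together with members of 24 gene lists. *Hs3st3a1*, *Hs3st3b1*, *Krt75*, *Krt6a*, *Mt1*, *Ftl1*, *Gstt2*, *Gstt3*, *Mmp11*, *Spp1* and *Caln1* are outside this rule and were named after their values were seen. The cells, lists and markers were chosen with earlier results of these data known. Doublets of cells from different days were removed by the barcode ratio. Doublets within a day were not called, and an alternative without the 10% of cells with most UMIs stands in for them. The hypoxic and stressed cluster that the study removed was kept. Gene positions came from GENCODE M21 and promoter windows from RefSeq, both GRCm38. No RefSeq window was found for *Psca*, and none could be searched for some members of the cholesterol, G2/M and S phase lists. Some genes are not reported here. In all, 15 processing alternatives were run for the gene comparison.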

Additional observations from a re-analysis of the deposited data

Results flagged for a closer look

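*Acta2*, the smooth muscle actin gene, differed in direction between the sex classes of cells. In cells with a Y-linked and no *Xist* UMI its log2 ratio of day 3 over day 1 was -2.42 (-2.82 to -2.04), from 240 UMIs on day 1 to 72 on day 3. In cells with an *Xist* and no Y-linked UMI it was 1.66 (0.49 to 3.00), from 8 UMIs to 28. Over all prostatic cells *Acta2* stood at 25.8 CPM on day 1 and 5.58 CPM on day 3, and 1.19% and 0.426% of thinned cells held it. These were 9 cells on day 1 with a mean of 5.8 UMIs and 4 cells on day 3 with 2.25. The intervals above treat UMIs as independent, and are too narrow for a gene whose UMIs sit in so few cells. The difference between the classes was not tested, since each class of each day came from 1 pool.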

How the results depend on the processing

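The counts of 55 genes higher and 71 lower became 15 and 10 with a minimum mean of 50 CPM, 1622 and 3072 with no filter on low values, and 106 and 173 in cells with an *Xist* and no Y-linked UMI. These settings compare fewer genes, far more genes or fewer cells by construction. Under the other 12 alternatives the counts stayed within 1.5 times, from 53 to 73 higher and from 53 to 99 lower. In cells with no UMI of 5 cell cycle genes the counts were 66 and 71, but only 32 of the 55 and 34 of the 71 genes were among them. The sign of the ratio was kept by all 55 higher genes under every alternative except in Y-linked cells (54), and by all 71 lower genes except in *Xist* cells (69). *Acta2* was reversed at 1.66 in *Xist* cells, and the cause was not tested. List medians kept their value within the limit set for them in 291 of 360 repeats and moved in 69. Gene ratios kept theirs in 3453 repeats, moved in 1299 and reversed in 1. Shares of cells kept theirs in 15 repeats and moved in 209. The size of these limits is not given here. *Krt23* was held by 1.56% of day 1 and 8.99% of day 3 cells thinned to 3000 UMIs, and by 4.93% and 20.9% without thinning. Shares are thus tied to their depth, though day 3 was higher for *Krt23* at each. The G2/M median was 0.44 and became 0.12 without the 10% of cells with most UMIs. In cells with no UMI of 5 cell cycle genes it was -0.06. That selection uses *Mki67*, *Top2a*, *Cdk1* and *Ccnb1*, which are members of the G2/M list. The lower median there thus follows from the selection and is no check of the G2/M difference. No paired analysis was possible because each day was a single pool with no replicate number, and for the same reason no replicate could be left out. At this depth a gene at 10 CPM rests on fewer than 200 UMIs per day, so low genes carry wide counting intervals, and the spread between pools of 1 day is unknown.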

Other observations

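*Ftl1-ps1*, a near copy of *Ftl1*, was high in the day 1 pool and in part of the day 6 pool. A UMI was found in 12.7% of day 0 cells, 54.1% of day 1 cells, 10.0% of day 3 cells and 15.8% of day 6 cells. At least 3 UMIs were found in 376 of the day 1 cells, 5 of the day 3 cells and 250 of the day 6 cells. On day 6, 30.5% of cells with an *Xist* and no Y-linked UMI held it, against 5.38% of those with a Y-linked and no *Xist* UMI. On day 1 the shares were 69.3% and 41.7%. *Ftl1* itself stood at 2023 CPM on day 1 and 2297 CPM on day 3, and *Ftl1-ps1* gave 25.1 UMIs per 100 *Ftl1* UMIs on day 1 and 0.367 on day 3.

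Of the 126 genes past 2-fold, 12 pairs lay within 250 kb of each other on a chromosome. In 5 pairs both were higher on day 3, in 3 both were lower, and in 4 they differed. Such pairs were not counted among all genes compared, so these counts show no clustering and are a description only. The 3 pairs that were both lower joined *Gstt3*, *Gstt2* and *Mmp11* on chromosome 10. *Krt75* (52.0 CPM on day 1 and 19.3 CPM on day 3) and *Krt6a* (29.6 and 63.6 CPM), 116.006 kb apart on chromosome 15, differed in direction. Genes of one family can share reads, so the values of such neighbours are less certain.

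Cells of day 6 repeated part of the relation seen on day 3. Of the 533 thinned cells with a *Dlk1* UMI, 89.3% held *Meg3*, 29.8% *Wif1*, 10.7% *Ly6a* and 1.31% *Psca*, against 57.8%, 15.9%, 34.1% and 5.42% of the 1825 cells without. The intervals of *Krt23* (3.56% against 2.25%) overlapped.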
